A study of Mus musculus with 6 samples.

Results

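Scavenger receptors bind oxidized or acetylated lipoproteins, dead cells and microbes and carry them into macrophages. The transcripts of 8 such receptors, Cd36, Msr1, Marco, Olr1, Scarb1, Cd68, Cd163 and Colec12, were followed in M2c-polarized macrophages with and without the soluble epoxide hydrolase (sEH). They were chosen by symbol from the 19309 genes of the deposited count table, of which they make up 8, by a rule that uses no measured value. The list of symbols was drawn up with earlier results of these data known. Each symbol matched 1 gene.

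Most scavenger receptors keep taking up modified LDL when the cholesterol of a cell rises, and macrophages that carry them can fill with cholesterol ester and become foam cells. The receptors are built in unrelated ways. Msr1, Marco and Colec12 are trimeric proteins with a collagen-like stalk, Cd36 and Scarb1 are hairpin proteins anchored at both ends, Olr1 is a C-type lectin, Cd68 is a heavily glycosylated protein of the lysosome, and Cd163 is built from scavenger receptor cysteine-rich domains and is best known as the receptor for haptoglobin-hemoglobin complexes.

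RNA of mouse bone marrow-derived macrophages was sequenced, in 3 sEH-/- and 3 wild-type libraries, each from cells of a different mouse. According to the methods, the marrow came from mice aged 8 to 10 weeks, and strain-matched littermates served as controls. The libraries carry no label for the sex of the mice, the strain or the deleted allele. The paper states that, after finding a sex difference in sEH levels, it continued with cells of female mice. All 6 cultures had the same treatment. Bone marrow monocytes were differentiated for 7 days with 15 ng/mL M-CSF plus 15 ng/mL GM-CSF. They were then polarized by 10 ng/mL LPS together with 1 ng/mL IFN-γ, and 10 ng/mL TGF-β1 finally brought them to the M2c state. The labels set the LPS and IFN-γ step at 24 h and the TGF-β1 step at 48 h, whereas the methods give 12 h for the former and 24 h or 48 h for the latter. No loading with modified lipoprotein is described for the sequenced cultures. In separate uptake assays, the paper reports that wild-type M2c macrophages took up more oxidized LDL than sEH-/- ones. No M0 or M1 library was analysed here, so that the values describe the receptors after repolarization only.

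Library totals lay between 4400197 and 6096440 counts, and the deepest library held 1.39 times the counts of the shallowest. Values are given as raw counts, as CPM (counts scaled to a common size with TMM-normalized library totals) and, for comparisons between genes, as CPM per kilobase of exon. Differences are log2 fold changes of sEH-/- over wild-type from edgeR's quasi-likelihood test with Benjamini-Hochberg adjustment over 13785 tested genes, and a gene was called at an adjusted p below 0.05 together with a fold change above 1.5. The genotype labels were checked with Ephx2, the gene that encodes sEH, which held 4, 2 and 1 counts in the sEH-/- and 26, 49 and 57 in the wild-type libraries. All 8 macrophage markers examined (Adgre1, Csf1r, Itgam, Cd14, Lyz2, Fcgr1, Mertk and Cd68) had log2 fold changes above 0, with a median of 0.21. Over all tested genes 49.8% were above 0. P-values set the difference between the genotypes against the spread among libraries of the same genotype, within these 6 libraries only. In bulk RNA fewer cells of a type and less RNA per cell cannot be told apart.

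Of the 8 receptors, Olr1 passed the test for a difference between the genotypes. It was higher in sEH-/- macrophages, and the difference was close to the 1.5-fold criterion. Cd36, Msr1, Marco, Scarb1, Cd68 and Colec12 were expressed but did not pass the test, and Cd163 was close to undetected. Thus, 7 of the 8 receptors had enough counts to be tested (a mean of more than 5) and 1 of the 7 was called, against 2.61% of all tested genes in either direction and 1.51% in the direction of higher expression in sEH-/- cells. Of the 7 log2 fold changes 5 were above 0 and 2 below, with a median of 0.07, and over all tested genes 49.8% were above 0. Genes with more counts per exonic base tended to higher log2 fold changes, as described below. The CPM of the genotypes did not overlap for 1 of the 7, Olr1, while 26.3% of all tested genes had no such overlap. An unadjusted p below 0.05 was reached by 1 of the 7, again Olr1, and by 23.4% of all tested genes.

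**Figure D1:**
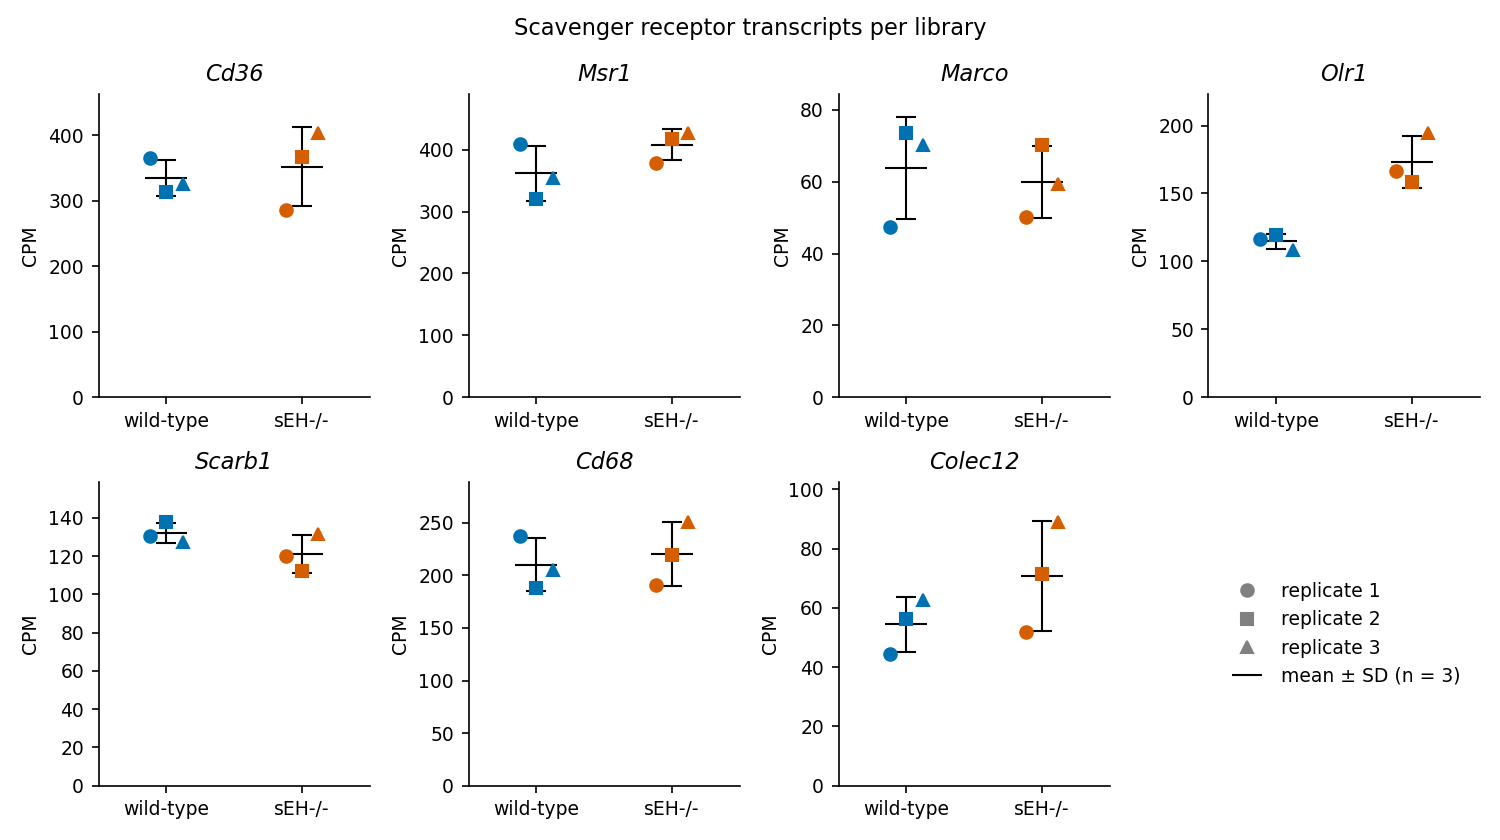
CPM (vertical axis, starting at 0) of the 7 tested scavenger receptors in each library, with wild-type in blue and sEH-/- in orange, the marker shape giving the replicate and the lines the mean ± SD (n = 3). The 3 sEH-/- points of Olr1 lie between 158 and 194 CPM, above the wild-type points between 108 and 119 CPM, while the points of every other gene overlap between genotypes.

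Olr1 (ENSMUSG00000030162) encodes the lectin-like oxidized LDL receptor LOX-1, which binds oxidized LDL and was first known from endothelial cells. The gene lies on the minus strand of chromosome 6 from 129485244 to 129507165 (mm10), with 3572 bp of annotated exon. The sEH-/- libraries held 974, 785 and 840 counts and the wild-type libraries 530, 737 and 605. On the CPM scale these were 166, 158 and 194 with sEH deleted, against 116, 119 and 108 in wild-type cells. The lowest sEH-/- library was thus above the highest wild-type library, although on raw counts sEH-/- replicate 2 exceeded the deepest wild-type library by a small margin only. The mean level was 173 ± 19.0 CPM in sEH-/- against 115 ± 5.74 CPM in wild-type macrophages (SD, n = 3 each). The log2 fold change was 0.59 (edgeR adjusted p = 0.014, SE 0.087), a 1.51-fold difference with a 95% interval from 1.32 to 1.72. The interval lies above 1 but includes folds below the 1.5-fold criterion, so that the direction was better determined than the side of that criterion.

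The call of Olr1 depended on the processing, but its direction did not. Over 17 alternative fits the log2 fold change stayed between 0.51 and 0.67, and the adjusted p ranged from 9.9e-06 with DESeq2 to 0.11 without wild-type replicate 3. The call was kept in 12 of the 17 fits. It was lost through the fold criterion with library size without TMM factors (0.57), with log library depth as a covariate (0.57) and without sEH-/- replicate 3 (0.51), the library with the highest Olr1 level. Leaving out wild-type replicate 2 (0.62, edgeR adjusted p = 0.057) or wild-type replicate 3 (0.55, adjusted p = 0.11) ended it through the p-value. In those latter fits the number of called genes fell from 360 to 25 and 6, respectively.

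**Figure D2:**
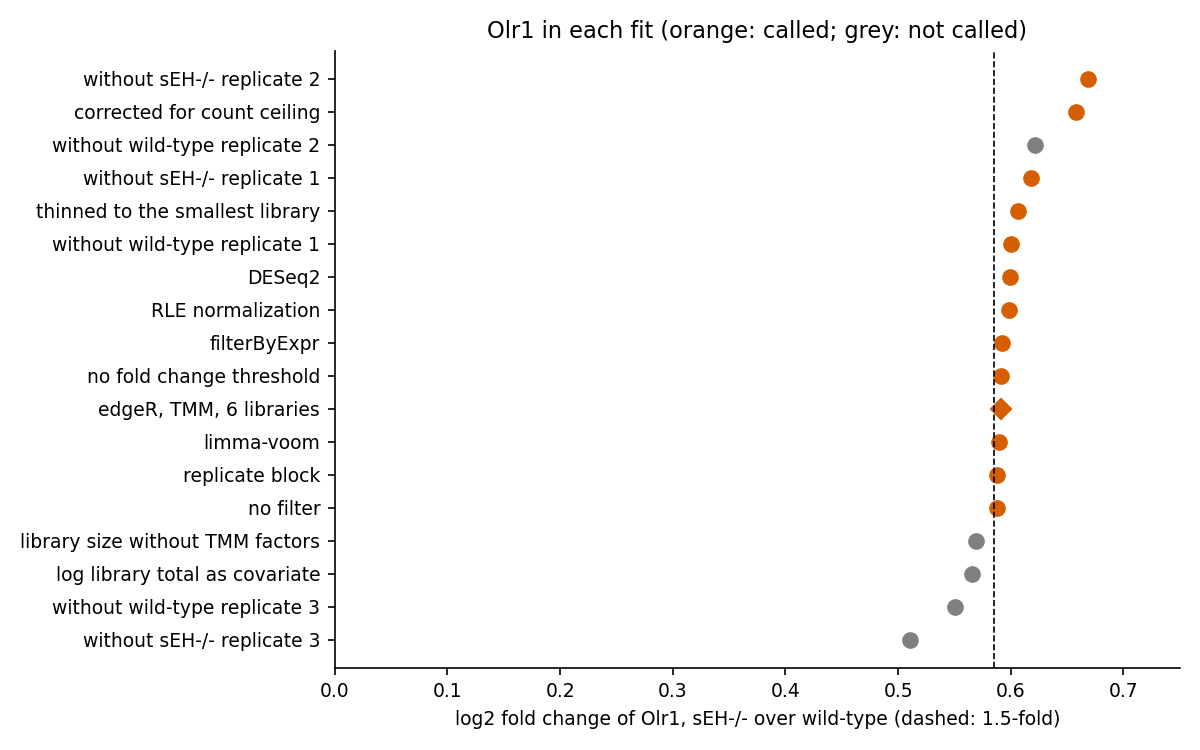
Log2 fold change of Olr1, sEH-/- over wild-type (horizontal axis), in each fit named on the vertical axis, with the diamond marking the fit used throughout, orange points called and grey points not called. The points lie between 0.51 and 0.67, to the right of 0, and scatter around the dashed line of a 1.5-fold change.

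Sequence just upstream of Olr1 is shown because this was the receptor whose transcript differed, and that upstream of Cd68 because it carried the same short motif without a called difference. Of the 8 receptors 5 (Cd36, Marco, Olr1, Cd68 and Cd163) matched an entry among the RefSeq promoters (GRCm38.p6). In the 250 bases before the start site, both strands were searched for AP-1 (TGANTCA), PU.1 (GAGGAAG), an NF-κB motif, the PPAR direct repeat and the palindromic Smad element (GTCTAGAC). The AP-1 and Smad letters read the same on both strands, and such a match was counted once. The sequences below run 5′ to 3′ in the direction of transcription up to the base before the RefSeq start site, with matches to the AP-1 motif in capitals. The first is chr6:129507166-129507415, minus strand, and the second chr11:69666171-69666420, minus strand.
Olr1: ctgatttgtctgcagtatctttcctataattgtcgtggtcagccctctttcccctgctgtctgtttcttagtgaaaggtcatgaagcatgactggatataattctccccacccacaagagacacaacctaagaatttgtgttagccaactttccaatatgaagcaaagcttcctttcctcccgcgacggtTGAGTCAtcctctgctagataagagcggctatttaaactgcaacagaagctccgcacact
Cd68: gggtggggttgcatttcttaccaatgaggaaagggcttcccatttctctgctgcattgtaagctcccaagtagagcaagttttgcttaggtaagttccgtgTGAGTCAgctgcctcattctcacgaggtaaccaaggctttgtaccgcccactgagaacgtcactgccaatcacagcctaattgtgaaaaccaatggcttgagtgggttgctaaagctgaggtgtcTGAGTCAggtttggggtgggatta

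The Olr1 window held 1 AP-1 match, whose first base lies 60 bases upstream of the start site. Cd68 had 2 matches, at 149 and 24 bases. Such a match was found in 6.75% of all 32851 promoter windows of this length. Marco held 1 PU.1 match, found in 10.6% of the windows, and 1 NF-κB match, found in 1.41%, and neither the PPAR nor the Smad motif occurred in the windows of the 5 receptors (0.0335% and 0.167% of all windows). These letter matches describe the sequence and do not show binding.

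Cd36 (ENSMUSG00000002944, chromosome 5 from 17781690 to 17888801, minus strand) encodes a class B receptor for oxidized LDL, long-chain fatty acids and thrombospondin. It was counted 1674, 1820 and 1741 times in the sEH-/- and 1663, 1937 and 1816 times in the wild-type libraries. The corresponding levels were 286, 367 and 403 CPM against 365, 314 and 325 CPM. The lowest and the highest of the 6 values both came from sEH-/- libraries, so that the wild-type range lay within the sEH-/- range. Means were 352 ± 59.9 and 335 ± 26.9 CPM (SD, n = 3 each), and the log2 fold change of 0.07 (edgeR adjusted p = 0.78, SE 0.12) had a 95% interval from 0.872-fold to 1.27-fold. A 1.5-fold change in either direction lies outside this interval. Without sEH-/- replicate 3 the log2 fold change was -0.027.

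Scarb1 (ENSMUSG00000037936, chromosome 5 from 125277087 to 125341094, minus strand) encodes SR-BI, the other class B receptor, which takes up cholesterol ester from HDL and also binds modified LDL. Its levels were 120, 112 and 132 CPM in sEH-/- and 131, 138 and 128 CPM in wild-type macrophages. Of the sEH-/- libraries, only replicate 3 reached the wild-type range. The means of 121 ± 9.92 and 132 ± 5.37 CPM (SD, n = 3 each) gave a log2 fold change of -0.13 (edgeR adjusted p = 0.36, SE 0.077; 0.814-fold to 1.03-fold). Scarb1 had the narrowest interval of the 7 receptors, and its coefficient of variation over the wild-type libraries was 4.07%, compared with 5.01% for Olr1 and 22.3% for Marco.

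Msr1 (ENSMUSG00000025044, chromosome 8 from 39581685 to 39642673, minus strand) encodes the class A receptor first identified through the uptake of acetylated LDL. It was present at 379, 418 and 427 CPM in sEH-/- and at 409, 321 and 354 CPM in wild-type macrophages. The highest wild-type value lay among the sEH-/- values, and it came from the shallowest wild-type library. Means were 408 ± 25.3 and 362 ± 44.7 CPM (SD, n = 3 each), with a log2 fold change of 0.18 (edgeR adjusted p = 0.33, SE 0.10; 0.967-fold to 1.32-fold).

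Marco (ENSMUSG00000026390, chromosome 1 from 120474538 to 120505024, minus strand), a class A receptor for bacteria and particles, was measured at 50.2, 70.3 and 59.5 CPM in sEH-/- and at 47.4, 73.5 and 70.1 CPM in wild-type macrophages. Wild-type replicate 1 stood apart from the other wild-type libraries, and the ranges of the genotypes largely coincided. The log2 fold change of -0.10 (edgeR adjusted p = 0.77, SE 0.16; log2 interval -0.47 to 0.27) changed sign, to 0.02 in each case, without sEH-/- replicate 1 or without wild-type replicate 2.

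Colec12 (ENSMUSG00000036103, chromosome 18 from 9707595 to 9882644, plus strand) encodes a collectin with a scavenger receptor stalk that binds oxidized LDL and carbohydrates. Its levels were 51.7, 71.5 and 89.1 CPM in sEH-/- cells, against 44.3, 56.4 and 62.6 CPM in wild-type cells. Replicates 2 and 3 of sEH-/- were above all wild-type libraries, while replicate 1 was not. The log2 fold change was 0.36 (edgeR adjusted p = 0.27, SE 0.18), and the 95% interval from 0.971-fold to 1.70-fold included both no difference and folds above 1.5. With single libraries left out it ranged from 0.17 (without sEH-/- replicate 3, adjusted p = 0.58) to 0.55 (without sEH-/- replicate 1, adjusted p = 0.049), where it stayed under the fold criterion. Collagen-producing stromal cells can also express Colec12. The summed CPM of the 6 stromal markers analysed (Col1a1, Col1a2, Col3a1, Pdgfra, Dcn and Cxcl12) was 16.1, 17.1 and 6.71 in sEH-/- libraries, compared with 4.17, 61.7 and 22.0 in wild-type libraries. The library with the highest Colec12 level, sEH-/- replicate 3, had the second lowest stromal sum. Wild-type replicate 1 had both the lowest Colec12 level and the lowest stromal sum. The part of stromal cells in the Colec12 values was not tested.

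Cd68 (ENSMUSG00000018774, chromosome 11 from 69664213 to 69666153, minus strand) encodes a lysosomal glycoprotein that is used as a macrophage marker and can bind oxidized LDL. Its raw counts were nearly equal in all libraries, with 1117, 1090 and 1085 in sEH-/- cells compared with 1082, 1159 and 1147 in wild-type cells. The highest count was only 1.07 times the lowest, although the library totals differed by 1.39 times. On the CPM scale Cd68 therefore mirrored the library totals, at 191, 220 and 251 CPM in sEH-/- and 237, 188 and 205 CPM in wild-type macrophages. The log2 fold change was 0.07 (edgeR adjusted p = 0.77, SE 0.11; 0.881-fold to 1.25-fold), and it was -0.038 when the counts were corrected for a ceiling of 1 per exonic base. It also turned below 0 without sEH-/- replicate 3 (-0.024) or without wild-type replicate 2 (-0.0076).

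Cd163 (ENSMUSG00000008845, chromosome 6 from 124304656 to 124330527, plus strand) held 0, 2 and 1 counts in the sEH-/- and 0, 0 and 0 in the wild-type libraries. No fold can be given, since every library was below 3 counts, the limit that a count of 0 allows, which corresponds to between 0.486 and 0.694 CPM in these libraries and covers counting error only. A difference in Cd163 was not detectable at this depth. Cd163 and Olr1 lie on the same chromosome, 5.15 Mb apart, and none of the 8 receptors is on chromosome 14, which carries Ephx2. Among the other scavenger receptors described below, Stab1 and further genes of that list do lie on chromosome 14.

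**Figure D3:**
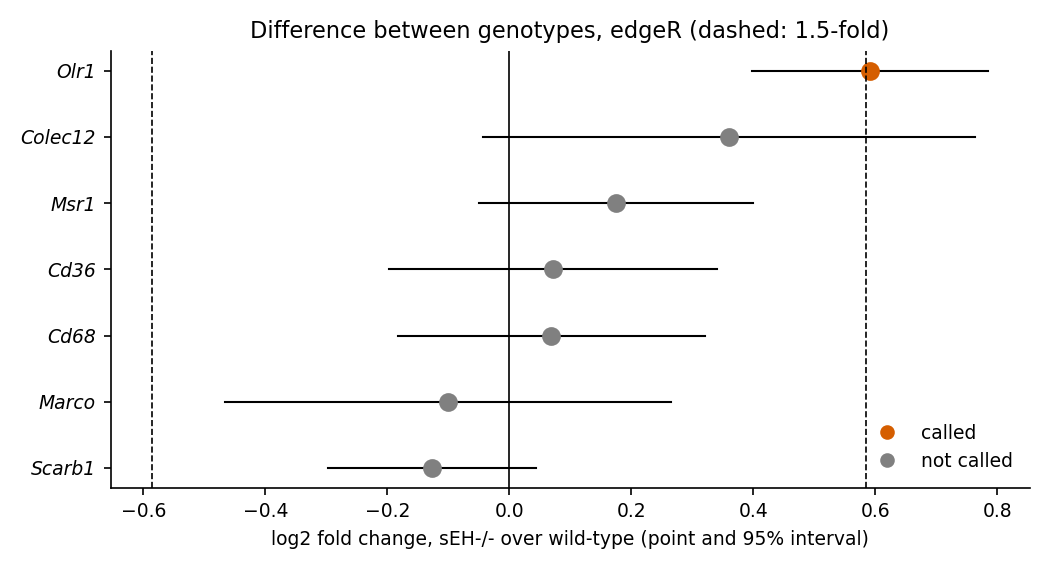
Log2 fold change of sEH-/- over wild-type (horizontal axis, points) with its 95% interval (lines) for the 7 tested scavenger receptors. The interval of Olr1, from 0.40 to 0.79, is the one that does not include 0, and of the others only that of Colec12 crosses the dashed line of a 1.5-fold change.

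Per kilobase of exon the receptors covered a wide range. In wild-type macrophages the levels in CPM per kilobase were 167 ± 20.1 for Cd68, 93.2 ± 7.50 for Cd36, 57.0 ± 7.04 for Msr1, 33.1 ± 7.38 for Marco, 32.1 ± 1.61 for Olr1, 15.5 ± 0.632 for Scarb1 and 6.24 ± 1.07 for Colec12 (SD, n = 3 each). Marco and Olr1, neighbours in this order, did not differ beyond their spread, and each other step was larger than the SDs on both sides. Only 0.0145% of the 13778 tested genes with an annotated length had a higher wild-type level per kilobase than Cd68, and the share was 0.733% for Cd36, 4.01% for Msr1, 15.2% for Olr1 and 63.6% for Colec12. Duplicate reads had been removed, which may hold down levels near 1 count per exonic base. Cd68 carried 0.886 counts per base and Lyz2, at 165 CPM per kilobase in wild-type cells, 0.881. The rank of Cd68 and its distance from other abundant genes are therefore uncertain. In sEH-/- cells Olr1 reached 48.4 ± 5.33 CPM per kilobase and lay above Marco at 31.2 ± 5.22 (SD, n = 3 each). The remaining order was the same as in wild-type cells, with 175 for Cd68, 98.0 for Cd36, 64.3 for Msr1, 14.3 for Scarb1 and 8.11 for Colec12.

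The share of Olr1 among the receptors was also compared within each library, where the scaling by the library total cancels. A different response of each gene to depth, described below, does not cancel. The ratios use the same Olr1 counts as the test above and are not separate support for it. The ratio of Olr1 to Scarb1, both per kilobase, was 3.30, 3.36 and 3.51 in sEH-/- libraries, against 2.12, 2.06 and 2.02 in wild-type libraries. Relative to Cd36, Olr1 stood at 0.585, 0.433 and 0.485 in sEH-/- and at 0.320, 0.382 and 0.335 in wild-type libraries. The genotypes did not overlap in either ratio, nor in the ratios of Olr1 to Msr1 (0.672 to 0.809 against 0.504 to 0.660) and to Cd68 (0.253 to 0.307 against 0.172 to 0.224). In the ratios to Marco and Colec12 they did overlap. Within the wild-type libraries the ratios to Cd36, Msr1 and Cd68 were lowest in the shallowest library and highest in the deepest. An exact permutation test of 3 against 3 libraries cannot give a two-sided p below 0.1, so that these ratios are given without one.

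Duplicate reads had been removed before counting, which may bear on the abundant receptors most. Once a gene carries close to 1 count per exonic base, further reads are likely to be discarded as duplicates. Whether this caused the pattern below was not tested. Cd68 carried 0.886 counts per base on average over the 6 libraries, Cd36 0.494, Msr1 0.314, Olr1 0.209, Marco 0.170, Scarb1 0.0782 and Colec12 0.0371. Between sEH-/- replicates 1 and 3 the library totals differed by 1.32 times, whereas the median gene with 0.5 to 1 counts per base differed by 1.07 times and the median gene with less than 0.05 by 1.48 times. For the wild-type replicates 2 and 1 the totals also differed by 1.32 times, and the medians were 1.10 and 1.44. Thus raw counts followed depth less closely the more counts per base a gene carried. Over the same ranges the median log2 fold change of all genes rose from -0.057 (below 0.05) to 0.049 (0.2 to 0.5) and 0.089 (0.5 to 1). The share of genes called fell from 4.89% in the lowest range to 0% in the highest. The signs counted for the receptors and the gene lists were not adjusted for this trend. Cd68 followed the change in depth by 1.03 and 1.07 times, whereas Olr1 followed it by 1.16 and 1.39 times and Scarb1 by 1.23 and 1.43 times. The ratios were 0.962 and 1.16 for Cd36, 1.20 and 1.06 for Msr1, 1.14 and 2.10 for Marco and 0.787 and 1.72 for Colec12. Among single receptors the ratio thus did not simply follow the counts per base. For Cd68 and Cd36, which carried the most counts per base, a difference in transcript level between the genotypes could appear compressed. After correction for the ceiling, the log2 fold change of Olr1 was 0.66.

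**Figure D4:**
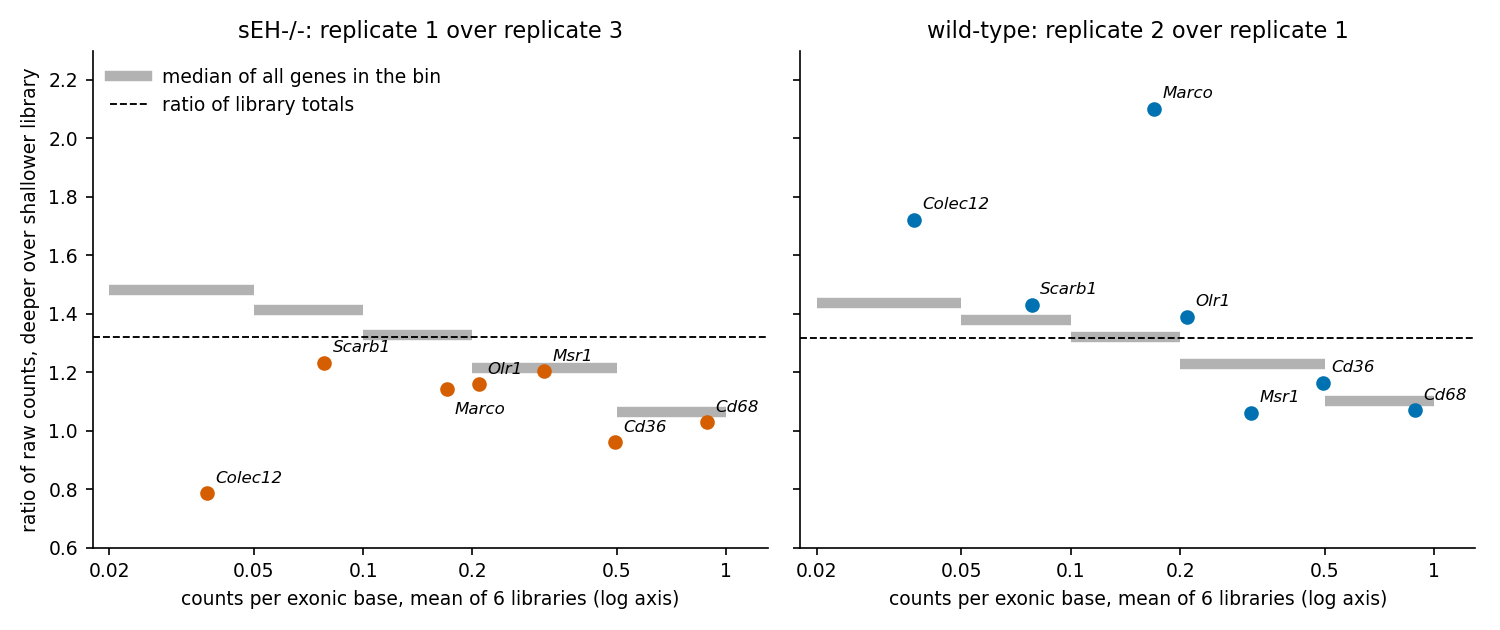
Ratio of raw counts between the deeper and the shallower library of each genotype (vertical axis) against the mean counts per exonic base (horizontal axis, log scale), for the 7 tested receptors (points), the median of all genes with at least 50 counts in each range of counts per base (grey bars, the lowest range drawn from 0.02) and the library totals (dashed line, 1.32). The bars fall from left to right, and Cd68, at 1.03 and 1.07, lies far below the dashed line. Colec12, with the fewest counts per base, lies lower still in sEH-/- (0.787) but above the line in wild-type (1.72).

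The genes whose pattern over the 6 libraries was most like that of each receptor were found by the root mean square difference of log2 CPM, with every gene centred on its own mean, among 10270 genes averaging at least 50 counts. For Olr1 these were Septin6 (0.0761) and Ppp1r9a (0.102), and for Colec12 Gm20721 (0.130) and Cebpd (0.134). Cd68 lay closest to H2-D1 (0.0151) and Sh3bgrl3 (0.0167), which carried 0.590 and 0.621 counts per exonic base. Both so also fell in the highest range of counts per base described above. The nearest genes were Rpl26 and Rps15 for Cd36 (0.0266 and 0.0266), Fam20c and Slc15a3 for Msr1 (0.0134 and 0.0179), Pdgfa and Pcgf1 for Marco (0.0953 and 0.114) and Pdlim5 and Bivm for Scarb1 (0.0167 and 0.0238). The closest matches of Msr1, Cd68 and Scarb1 were tighter than those of Olr1, Marco and Colec12. All points come from the same 6 libraries and share their depth.

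The pathway annotation deposited with the counts lists the phagosome for 6 of the receptors (Cd36, Msr1, Marco, Olr1, Scarb1 and Colec12), PPAR signaling for Cd36 and Olr1, the lysosome for Cd68 and no pathway for Cd163. No exon of the 8 receptors overlaps an exon of another annotated gene on either strand. The surroundings of Olr1 were examined after its value had been seen. The 14 other genes of the count table within 200000 bp of Olr1 include C-type lectin and killer lectin receptor genes. Of these 14 genes, 8 were tested and 1 was called, against 2.61% of all tested genes. The called gene was Klrk1, with a mean of 8.5 counts and a log2 fold change of 2.93 (edgeR adjusted p = 0.016). Clec7a, the β-glucan receptor Dectin-1 and the closest tested neighbour, had a log2 fold change of 0.13 (adjusted p = 0.56), Clec12a 0.66 (adjusted p = 0.056) and Clec1b -0.42 (adjusted p = 0.42). The log2 fold changes of the 8 neighbours ranged from -1.33 to 2.93.

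Among other scavenger receptors, Scarf2 was lower in sEH-/- macrophages. Of 20 listed genes 17 were analysed and 14 tested, with 1 called (2.61% of all tested genes were called), 12 log2 fold changes above 0, 2 below and a median of 0.17. The called gene was Scarf2, a receptor of the SREC family, which fell from 45.5 ± 3.03 to 24.6 ± 5.35 CPM (SD, n = 3 each), with a log2 fold change of -0.90 (edgeR adjusted p = 0.017, SE 0.14), and lost the call without wild-type replicate 2 (-0.88) or 3 (-0.86). The genes with the most counts were Stab1, which clears modified LDL and matrix fragments, with a log2 fold change of 0.45 (edgeR adjusted p = 0.066, SE 0.13), Scarb2, a lysosomal relative of Cd36, with 0.04 (adjusted p = 0.87), and Cxcl16, a membrane-bound chemokine that binds oxidized LDL, with 0.11 (adjusted p = 0.58). The CPM of the genotypes did not overlap for 5 of the 14 genes, where 26.3% of all tested genes had no overlap. These were Scarf2, Stab1, Stab2, Tlr4 and the LPS co-receptor Cd14, of which Stab2, Tlr4 and Cd14 were named after their values were seen. Cd14 passed the adjusted p but not the fold criterion (0.50, edgeR adjusted p = 0.029, SE 0.098).

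Among receptors for native lipoproteins, Vldlr was lower in sEH-/- macrophages. All 9 analysed genes of 10 listed were tested, 6 log2 fold changes were below 0 and 3 above (median -0.06), and 1 gene was called, lower in sEH-/- cells, against 1.1% of all tested genes called in that direction. This was Vldlr, a receptor for triglyceride-rich lipoproteins and for reelin, which held 30.7, 15.9 and 39.3 CPM in sEH-/- and 60.1, 82.4 and 66.2 CPM in wild-type libraries. Its ranges were separate, and the log2 fold change was -1.29 (edgeR adjusted p = 0.025, SE 0.24). The call was lost with log library depth as a covariate (-1.26) and without wild-type replicate 2 (-1.15) or 3 (-1.33). The members with the most counts were Lrp1, which takes up lipoprotein remnants, with a log2 fold change of 0.13 (adjusted p = 0.60), its chaperone Lrpap1 with 0.14 (adjusted p = 0.45) and the Wnt co-receptor Lrp6 with -0.05 (adjusted p = 0.81).

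Among 14 genes that handle cholesterol and lipid after uptake edgeR's quasi-likelihood test called 0, and 0 were also called in each of the 17 alternative fits, including DESeq2 and limma-voom. Over all tested genes 2.61% were called. At an unadjusted p below 0.05 there was 1, Abca1, against 23.4% of all tested genes, and 7 log2 fold changes were above and 7 below 0. Abca1, the exporter of cholesterol to apolipoprotein A-I, stood at 962 ± 62.3 CPM in sEH-/- compared with 749 ± 156 CPM in wild-type cells (SD, n = 3 each), with a log2 fold change of 0.36 (edgeR adjusted p = 0.15, SE 0.14). Soat1, which esterifies cholesterol for storage, had -0.08 (adjusted p = 0.68) and Npc1, which exports cholesterol from lysosomes, -0.10 (adjusted p = 0.57).

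Of 14 transcription factors that regulate scavenger receptor genes, 14 were tested, 10 log2 fold changes were above 0 and 4 below (median 0.11), and 1 was called, lower, against 1.1% of all tested genes called in that direction. This was Pparg, a nuclear receptor known to activate Cd36, with 17.9, 15.9 and 22.9 CPM in sEH-/- and 24.4, 36.8 and 34.7 CPM in wild-type libraries. The highest sEH-/- library was just below the lowest wild-type library. The log2 fold change was -0.77 (edgeR adjusted p = 0.048, SE 0.19), and the call was kept in 9 of 17 alternative fits. It was lost with limma-voom (-0.79), the replicate block (-0.75), thinning (-0.83) and log library depth as a covariate (-0.73), and without sEH-/- replicate 1 (-0.74) or 2 (-0.65) or wild-type replicate 2 (-0.66) or 3 (-0.71). Stat6, which acts downstream of IL-4, had 0.03 (adjusted p = 0.84) and Rxra, the partner of Pparg, -0.004 (adjusted p = 0.98), with a sign that was opposite with DESeq2 or RLE normalization.

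**Figure D5:**
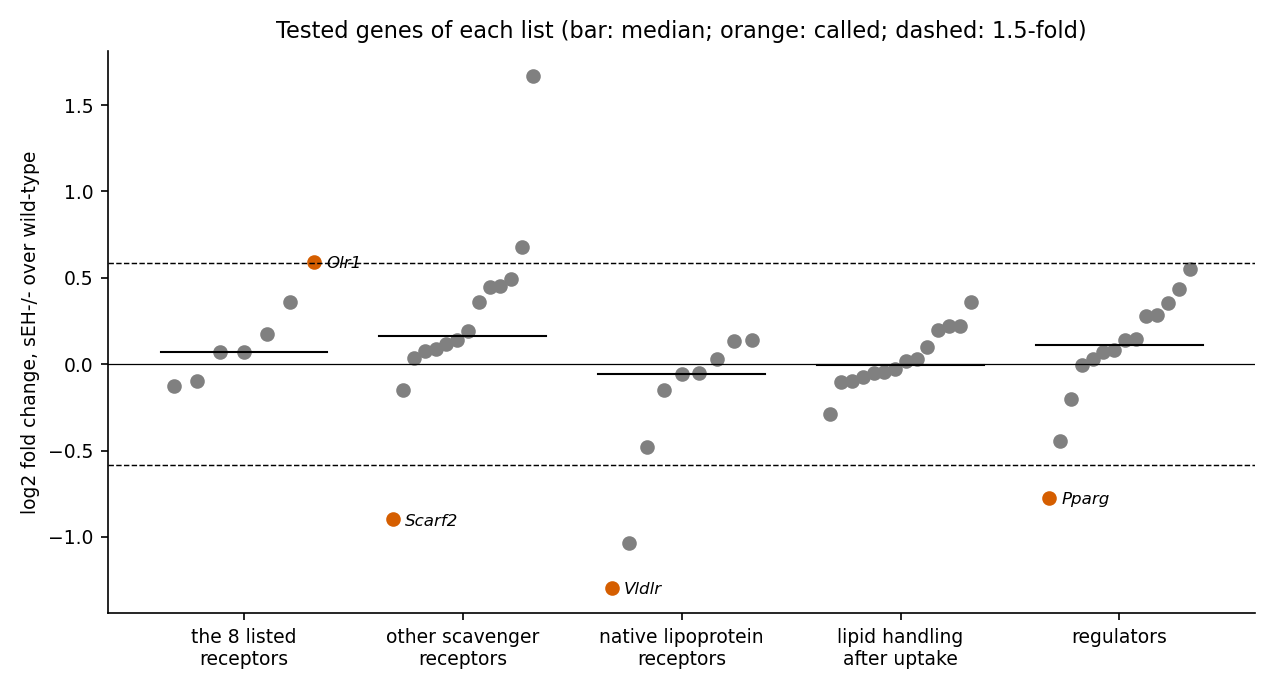
Log2 fold change of sEH-/- over wild-type (vertical axis) of every tested gene, in 5 groups along the horizontal axis, sorted by value within a group, with the bar at the group's median, called genes in orange and named, and dashed lines at a 1.5-fold change. Olr1 is the called gene above 0, while Scarf2, Vldlr and Pparg lie below the lower dashed line.

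Markers of other cell types were low, and none of those tested was called, although some had separate ranges in the genotypes. The neutrophil markers analysed, 6 of 9, summed to 27.3 to 31.8 CPM in sEH-/- and 17.6 to 20.9 CPM in wild-type libraries without overlap, nearly all of it S100a8 (26.9 ± 2.86 and 18.4 ± 1.48 CPM; SD, n = 3 each). Elane, Cxcr2 and S100a9 held between 0 and 3 counts in every library. Camp held 10, 3 and 4 counts in sEH-/- against 1, 1 and 1 in wild-type libraries, and Ngp 4, 4 and 3 against 0, 3 and 1. S100a8, the only neutrophil marker tested, had a log2 fold change of 0.54 (edgeR adjusted p = 0.057) and was not called. The CPM of Camp, Ngp and Elane, none of which was tested, did not overlap between the genotypes. Over all tested genes 26.3% had no overlap, and at such low counts separate ranges rest on few reads. The 6 of 8 dendritic cell markers summed to 27.7 to 58.1 and 42.1 to 59.4 CPM, with Cd209a at 0 in all libraries and most counts in Clec9a. Olr1 is also an endothelial gene, and the 6 of 8 endothelial markers analysed summed to 54.6 to 60.1 CPM in sEH-/- and 42.0 to 62.1 CPM in wild-type libraries, mostly Kdr, which had a log2 fold change of -0.02 (adjusted p = 0.95). Cdh5, which defines endothelium, was between 0.358 and 2.08 CPM. Of the 5 tested endothelial markers 3 log2 fold changes were above 0 and 2 below, with a median of 0.54. Stab2 had a log2 fold change of 1.67 (adjusted p = 0.077) and Pecam1 0.97 (adjusted p = 0.29), with 13.3 CPM in sEH-/- replicate 1. Tie1, which was not tested, held 3, 6 and 5 counts in sEH-/- against 0, 1 and 1 in wild-type libraries. The part of neutrophils or endothelial cells in the Olr1 difference was not tested. The lymphocyte and erythroid markers were not analysed here.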

How the data were processed

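The authors isolated RNA from the M2c-polarized macrophages, made 1 stranded library per sample and deposited raw counts of 19309 genes. Per the labels, they used Trimmomatic 0.39, STAR 2.7.7a on mm10, Picard 2.21.7 to remove duplicates and featureCounts 1.6.5; per the methods, multi-mapping, ribosomal and mitochondrial reads were also removed and reads over exons were counted on the correct strand. The labels and the methods differ on tool versions, on the library kit and on the RNA input. These deposited counts are not normalized.

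The tests used edgeR 4.0.16 under R 4.3.3 (TMM, glmQLFit, glmQLFTest, no covariates, all 6 libraries). Tested were the 13785 genes averaging over 5 counts, which hold 99.8% of all counts. TMM factors lay between 0.982 and 1.03, and the common biological coefficient of variation was 0.0866. Standard errors (SE) come from the log2 fold change and the quasi-likelihood F (size over root F), and adjusted p-values from edgeR's quasi-likelihood test with Benjamini-Hochberg adjustment. DESeq2 1.42.0, limma 3.58.1 (voom), other scalings and filters, thinning, a library total covariate, a ceiling correction, a replicate block and leaving out each library were alternatives. On simulated counts of 13625 genes for this comparison, edgeR called 76 of 98 genes changed 2-fold and 95 of 99 changed 4-fold, with 8 false calls. Changes near 1.5-fold or below, the size of the receptor differences, were not simulated. Exon lengths and positions came from GENCODE M21 (same build). Replicate libraries differed by more than sampling noise (chi-square per degree of freedom 2.36 to 5.25).

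The receptors and gene lists were chosen with earlier results of these data known. Genes named are the 8 receptors, Ephx2, the called genes and the 3 with the most counts of each list, cell type markers, and the 2 genes most like each receptor; others are marked as named after their values were seen. Some genes that this rule names are not reported here.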

Additional observations from a re-analysis of the deposited data

How the results depend on the processing

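Besides Olr1, whose call was lost in 5 of 17 alternative fits (0.57 with library size without TMM factors, 0.57 with log library depth as a covariate, and 0.51 to 0.67 with single libraries left out), no receptor was called in any fit. Msr1 (0.09 to 0.27), Scarb1 (-0.18 to -0.06) and Colec12 (0.17 to 0.55) kept their sign in all 17. Values near 0 changed sign: Cd36 was -0.017 with the covariate and -0.027 to 0.20 with single libraries left out, Cd68 was -0.013 with the covariate, -0.038 after the ceiling correction and -0.024 to 0.17 with libraries left out, Marco was -0.26 to 0.018 with libraries left out, Scarb2 was -0.025 with the covariate and -0.030 to 0.11, Lrp6 -0.15 to 0.018, and Rxra 0.0032 with DESeq2, 0.0033 with RLE normalization and -0.035 to 0.043. The libraries behind these changes of sign were sEH-/- replicate 3 and wild-type replicate 2 for Scarb2, sEH-/- replicate 2 and wild-type replicate 2 for Lrp6, and sEH-/- replicates 1 and 3 and wild-type replicate 1 for Rxra. The cause was not tested. The number of receptors called was 0 without TMM factors and with the covariate, and 0 to 1 with libraries left out. The other scavenger receptors gave 2 calls without a fold threshold or after the ceiling correction (0 to 2 with libraries left out), the native lipoprotein receptors 2 with DESeq2 or no filter and 0 with the covariate (0 to 2), and the regulators 0 with limma-voom, the replicate block, thinning or the covariate (0 to 2). Over all genes, 234 were called with the replicate block, 553 without a fold threshold, 171 with the covariate and 6 to 625 with libraries left out, against 360. Correlations of same-numbered libraries were -0.0818, -0.260 and -0.0367. They gave no sign of a pairing by replicate number, but 3 libraries per genotype are too few to exclude it. Under the replicate block Olr1 kept its call (0.59). Depth limits Cd163. A ceiling near 1 count per exonic base may limit Cd68 and Cd36, which was not tested.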
